A study of Mus musculus with 6 samples.

Results

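The inflammasome and NOD receptor genes studied here are Nlrp3, Nlrp6, Nlrc4, Nod1, Nod2, Aim2, Pycard, Casp1, Casp4 and Il18. They were followed on Affymetrix Mouse Genome 430 2.0 arrays through every probe set (the group of short probes that measures one transcript) whose only gene symbol was one of these names. The rule found 10 probe sets of 8 genes among 45037 probe sets of 18193 genes. Pycard had 3 of them and the others 1 each, while Nlrc4 and Nod2 had none in the annotation used and are not described further. Colon RNA on 3 HDAC1/2 deficient arrays was compared with that on 3 control arrays, and the labels number a mouse for each array. In the deficient animals floxed Hdac1 and Hdac2 were targeted by a Cre transgene under the villin promoter, which acts in intestinal epithelial cells, so immune, muscle and stromal cells of the same tissue kept both genes. By the paper, Western blot of enriched epithelial cells showed depletion of both proteins. It adds that HDAC2 staining was absent from most epithelial cells, while some crypts and villi kept it. The controls are labelled wild type, and whether they carried floxed alleles is not given in the sources used here. Mice of both groups were untreated and, by the paper, 4 months old.

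Before the results, the arrays were held against their labels. Hdac1 RNA was 2.46-fold lower in deficient colon, whereas Hdac2 RNA was not shown to be lower, with log2 fold changes of its 3 probe sets between -0.067 and 0.046 and none past the test. Colon RNA includes cells that kept both genes, so these values do not measure deletion in the epithelium alone. Every deficient array carried transcripts of both sexes. Xist, made by the inactive X chromosome of females, measured 12.01, 11.99 and 12.06 (log2) in deficient colon, against 12.88, 12.85 and 12.81 in control colon. The Y-linked gene Eif2s3y measured 8.32, 8.49 and 8.22 (log2) in deficient colon, against 3.84, 4.31 and 4.11 in control colon. Kdm5d, also Y-linked, measured 7.10, 7.06 and 7.02 (log2) in deficient colon, against 3.55, 3.71 and 3.38 in control colon. RNA of a single mouse would not be expected to hold both, which goes against the label of 1 mouse for each deficient array. The pancreatic gene Cpb1 was almost equal over the deficient arrays, at 12.18, 12.19 and 12.18 (log2), against 4.59, 5.05 and 5.20 in control colon. Of the 5 pancreatic genes measured, Cpb1 had the smallest spread over the deficient arrays. Cela2a measured 12.48, 12.58 and 12.45 there, and Cel 11.10, 10.98 and 10.83. Whether RNA of several mice was pooled, or the same RNA was measured again, was not tested. Each SD, interval and p-value therefore measures the spread between 3 arrays of a group, which may be technical, and may be smaller than the spread between mice.

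Inflammasomes are protein assemblies that form in the cytosol when a sensor meets a microbial product or a sign of damage. Sensors such as Nlrp3, Nlrp6 and Aim2 gather the adaptor encoded by Pycard, which recruits caspase 1. This protease matures interleukin 18 and interleukin 1 beta and cleaves gasdermin D, whose fragment opens pores in the membrane. Caspase 4, the mouse protein also called caspase 11, binds bacterial lipopolysaccharide in the cytosol and cleaves gasdermin D directly. Nod1 and Nod2 recognize fragments of bacterial peptidoglycan and signal through the kinase Ripk2 to NF-kappaB. In the gut, interleukin 18 is made constitutively by epithelial cells and Nlrp6 is known as a sensor of the epithelium.

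Interleukin 18 RNA fell and caspase 4 RNA rose in HDAC1/2 deficient colon, each by close to 1.3-fold, and 0 of the 10 probe sets changed more than 2-fold, beside 2.79% of all probe sets that did so and passed the test. By limma at an adjusted p under 0.05, 2 of 10 probe sets were higher (Casp4 and Nod1), 4 were lower (Il18, Aim2, Nlrp6 and Casp1) and the others did not pass. Changes were widespread on these arrays, where 39.8% of all probe sets passed, 18.8% as higher and 21.0% as lower. With 1 probe set kept per gene, the brightest, 6 of 8 genes passed, beside 50.4% of all genes, and 7 of 8 did not overlap, beside 60.9% of all genes. The median log2 fold change of the 8 genes was -0.11, beside -0.022 over all genes. The values of both groups did not overlap in 8 of the 10 probe sets, beside 50.0% of all probe sets. All 10 probe sets lay above the 40th percentile of mean signal. The shares over all probe sets and all genes include dimmer ones, so they are not matched to these genes for brightness. In RNA of whole tissue, fewer cells of a type and less RNA per cell cannot be told apart.

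**Figure D1:**
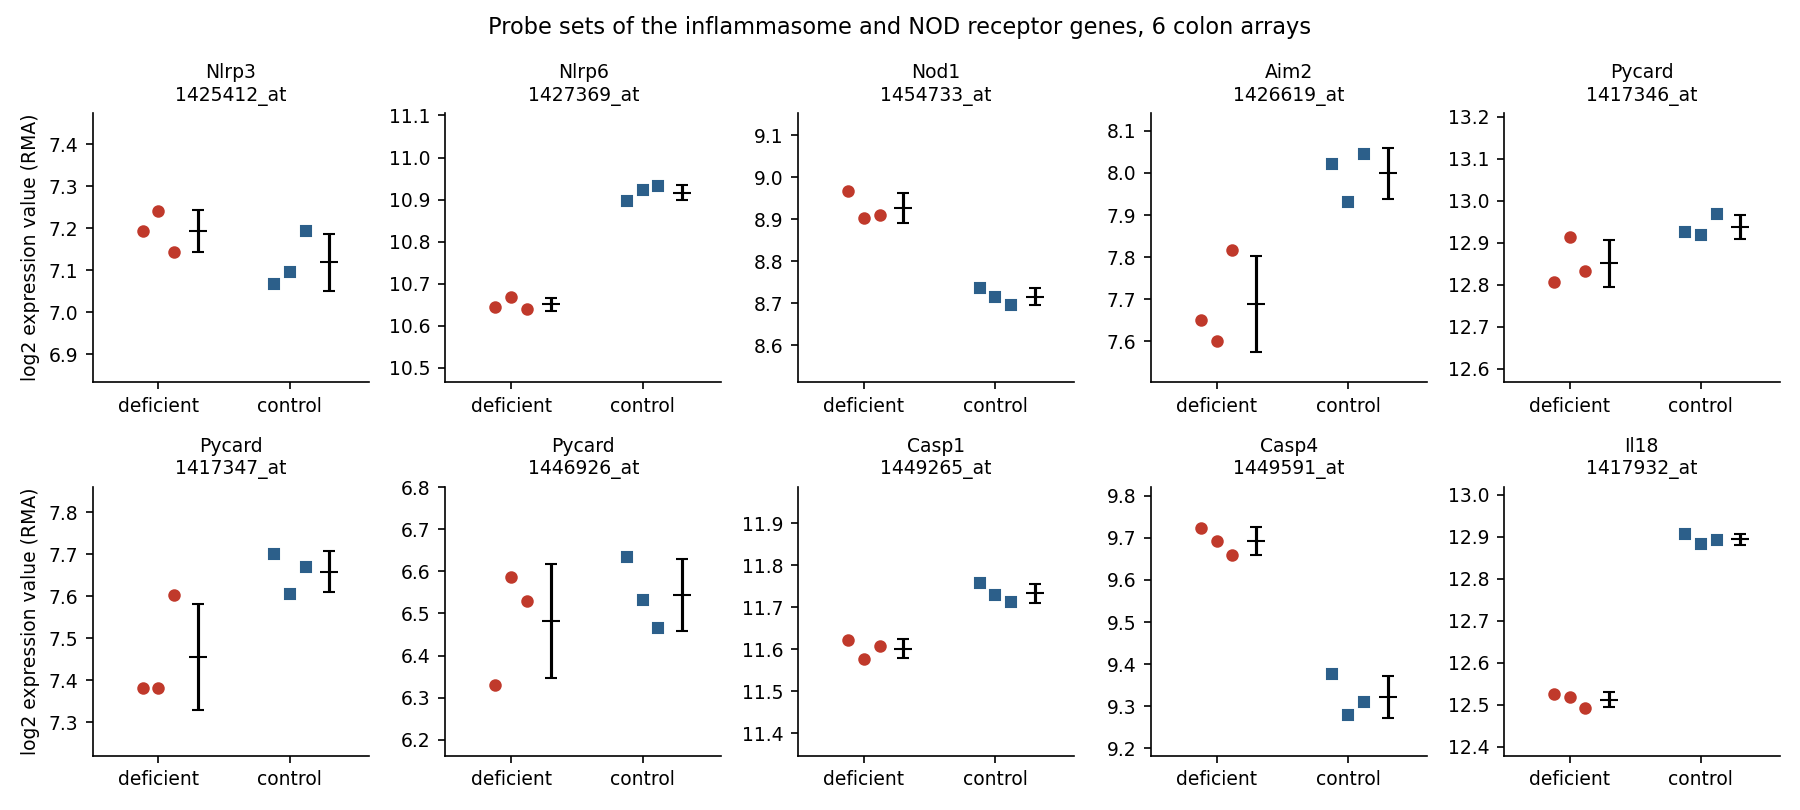
Log2 expression values (RMA, vertical axis, all panels spanning an equal range) of the 10 probe sets on 3 HDAC1/2 deficient arrays (red circles) and 3 control arrays (blue squares), with the mean and SD in black. Casp4 and Nod1 are higher on every deficient array, whereas Il18, Nlrp6, Aim2 and Casp1 are lower on each of them, and Nlrp3 and the probe set 1446926_at of Pycard overlap.

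Interleukin 18 gave the largest change among the 10 probe sets. Il18 (1417932_at) had log2 values of 12.53, 12.52 and 12.49 in deficient colon, against 12.91, 12.88 and 12.89 in control colon. The 3 deficient arrays lay close together and below every control array. The means were 12.51 ± 0.018 in deficient and 12.89 ± 0.012 in control colon (SD, n = 3 arrays each), and the log2 fold change was -0.38 (limma standard error, SE, 0.038, adjusted p = 1.48e-04), that is 1.30-fold lower, and leaving out any 1 array gave values from -0.39 to -0.37. Of all probe sets on the array, 18.4% changed by more than Il18 in either direction.

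Casp1 and Casp4, the inflammatory caspase genes of the set, were both measured, and they moved in opposite directions. Casp4 (1449591_at) had log2 values of 9.72, 9.69 and 9.66 in deficient colon, against 9.38, 9.28 and 9.31 in control colon. All deficient arrays were above all control arrays, and the means were 9.69 ± 0.032 in deficient and 9.32 ± 0.049 in control colon (SD, n = 3 arrays each). The log2 fold change was 0.37 (SE 0.045, limma adjusted p = 3.87e-04), a 1.29-fold rise. Casp1 (1449265_at), the effector shared by the Pycard-dependent sensors, had log2 values of 11.62, 11.58 and 11.61 in deficient colon, against 11.76, 11.73 and 11.71 in control colon. The groups did not overlap, with means of 11.60 ± 0.023 in deficient and 11.73 ± 0.023 in control colon (SD, n = 3 arrays each, log2 fold change -0.13, SE 0.040, limma adjusted p = 0.0325). This call did not hold when any 1 of the 6 arrays was left out (limma adjusted p from 0.0560 to 0.0970), while the log2 fold change stayed between -0.14 and -0.12. The change of Casp4 exceeded that of Casp1 by 0.50 on the log2 scale, which is given without a test because the genes were paired after their values were seen.

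Casp1 and Casp4 are neighbours on mouse chromosome 9, with 0 protein-coding genes between them in the RefSeq annotation of GRCm38.p6. The 250 bases before the annotated start of each of these genes, and of Il18, are shown because they belong to the largest rise, its neighbour of opposite direction and the largest fall. The windows run 5′ to 3′ on the plus strand and come from RefSeq (GRCm38.p6). Capitals mark matches on either strand to the NF-kappaB consensus.
Casp4, chr9:5308599-5308848: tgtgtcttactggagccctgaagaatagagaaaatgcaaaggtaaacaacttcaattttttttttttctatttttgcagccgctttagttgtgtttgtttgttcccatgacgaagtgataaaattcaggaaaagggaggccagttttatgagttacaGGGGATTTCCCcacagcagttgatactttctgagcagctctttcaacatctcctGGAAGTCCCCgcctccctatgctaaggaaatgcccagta
Casp1, chr9:5298267-5298516: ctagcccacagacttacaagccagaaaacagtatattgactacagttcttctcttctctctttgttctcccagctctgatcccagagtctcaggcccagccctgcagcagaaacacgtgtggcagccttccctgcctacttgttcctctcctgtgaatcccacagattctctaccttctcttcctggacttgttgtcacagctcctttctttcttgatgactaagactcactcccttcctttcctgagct
Il18, chr9:50554450-50554699: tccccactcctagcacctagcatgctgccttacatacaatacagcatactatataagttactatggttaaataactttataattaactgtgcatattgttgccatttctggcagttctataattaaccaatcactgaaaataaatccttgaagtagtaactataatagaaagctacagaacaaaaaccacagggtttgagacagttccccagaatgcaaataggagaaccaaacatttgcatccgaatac
The Casp4 window held a run of overlapping matches from 93 to 83 bases before the start and a single match from 39 to 30 bases before it. The Casp1 and Il18 windows held 0 matches. Over the 13 windows of all 10 genes (several have more than 1 annotated start), the motif was found in 3 windows of 2 genes, Casp4 and Nlrp3, beside 7.25% of all 32851 windows. The 2 Casp4 windows overlap and hold the same matches, so they count 1 sequence again. The interferon-stimulated response element, searched on both strands as a pair of GAAA tetramers with any 2 bases between them, was found in 0 of the 13 windows, beside 2.98% of all. The gamma-activated site, searched as TTCNNNGAA, was found in 1 window, of Nod1, beside 7.02% of all windows. A match is a string of letters and not a measured binding site.

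Among the sensors, Nlrp6 and Aim2 were lower in deficient colon. Nlrp6 (1427369_at) had log2 values of 10.64, 10.67 and 10.64 in deficient colon, against 10.90, 10.92 and 10.93 in control colon. The means were 10.65 ± 0.015 in deficient and 10.92 ± 0.018 in control colon (SD, n = 3 arrays each), so the gap was wider than the spread within either group (log2 fold change -0.27, SE 0.039, limma adjusted p = 0.00101). Aim2 (1426619_at), which encodes a receptor for cytosolic DNA, had log2 values of 7.65, 7.60 and 7.82 in deficient colon, against 8.02, 7.93 and 8.05 in control colon. The third deficient array stood nearest to the controls, without overlap, and the log2 fold change was -0.31 (SE 0.066, limma adjusted p = 0.00717). Nlrp3 (1425412_at), a sensor best known from myeloid cells, had log2 values of 7.19, 7.24 and 7.14 in deficient colon, against 7.07, 7.10 and 7.19 in control colon. The groups overlapped, and the difference missed the threshold (log2 fold change 0.074, 95% interval from -0.046 to 0.19, limma adjusted p = 0.307).

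Nod1 was the peptidoglycan receptor that could be measured. Its probe set (1454733_at) had log2 values of 8.97, 8.90 and 8.91 in deficient colon, against 8.74, 8.72 and 8.70 in control colon. Every deficient array was above every control array, with means of 8.93 ± 0.036 in deficient and 8.72 ± 0.020 in control colon (SD, n = 3 arrays each) and a 1.16-fold rise (log2 fold change 0.21, SE 0.041, limma adjusted p = 0.00456).

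The 3 probe sets of the adaptor gene Pycard all had negative log2 fold changes and none passed the test. The brightest (1417346_at) had log2 values of 12.81, 12.91 and 12.83 in deficient colon, against 12.93, 12.92 and 12.97 in control colon. The groups did not overlap but nearly touched at the second array of each (log2 fold change -0.087, 95% interval from -0.19 to 0.020, limma adjusted p = 0.183). The second (1417347_at) had log2 values of 7.38, 7.38 and 7.60 in deficient colon, against 7.70, 7.60 and 7.67 in control colon. It lay at the threshold (log2 fold change -0.20, limma adjusted p = 0.0505) and, without the third deficient array, passed it (log2 fold change -0.28, limma adjusted p = 0.00702). The third (1446926_at) had log2 values of 6.33, 6.59 and 6.53 in deficient colon, against 6.64, 6.53 and 6.47 in control colon. These overlapped (log2 fold change -0.063, limma adjusted p = 0.574), and without the first deficient array the log2 fold change was 0.013.

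**Figure D2:**
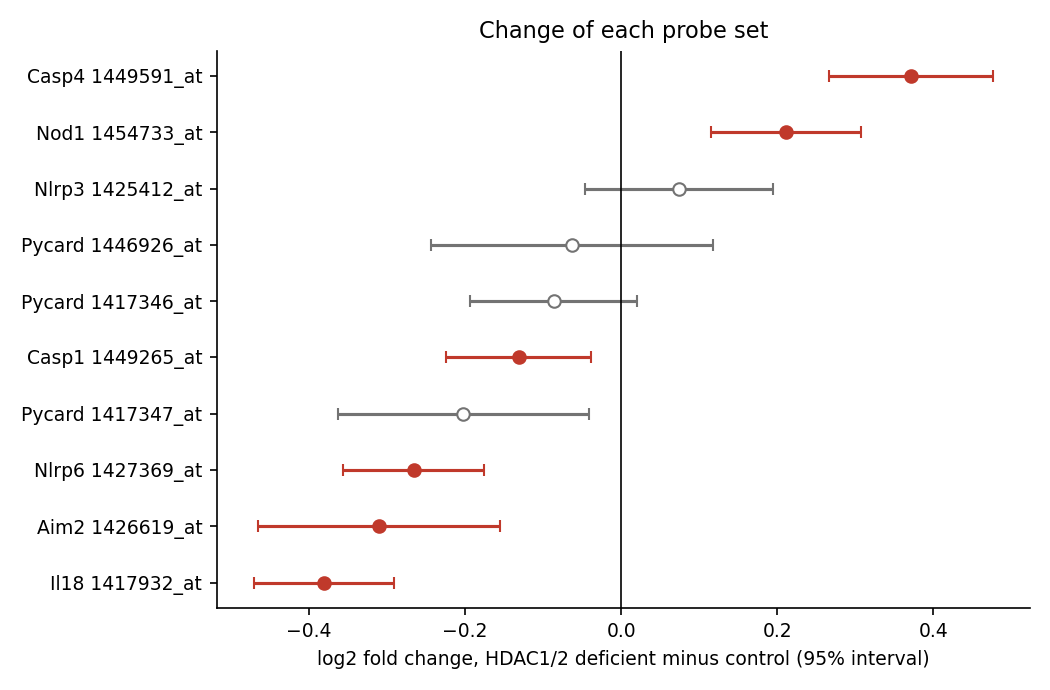
Log2 fold change (HDAC1/2 deficient minus control, horizontal axis) of each probe set with its 95% interval from limma, ordered by size. Red points passed at an adjusted p under 0.05 and open grey points did not, and the range runs from -0.38 for Il18 to 0.37 for Casp4.

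The genes around this pathway were followed in 4 lists, of whose 92 genes 76 had a probe set of their own. By limma, 30 of the 76 were higher, 23 lower and 23 did not pass, beside 21.9% higher and 28.4% lower among all genes. More than 2-fold, 10 rose and 2 fell, beside 4.07% of all genes in either direction. Each gene is given by its brightest probe set.

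Other NOD-like receptors and cytosolic DNA sensors were mostly higher, with 10 of 17 higher, 3 lower and a median log2 fold change of 0.32. Nlrc5, the transactivator of MHC class I genes, had log2 values of 7.59, 7.68 and 7.61 in deficient colon, against 5.63, 5.58 and 5.74 in control colon (a log2 fold change of 1.98, SE 0.055, limma adjusted p = 3.11e-07). Zbp1 (1.36), a sensor of Z-form nucleic acids, Ifi204 (1.17), an Aim2-like sensor, and Nlrp10 (1.17) followed on the log2 scale. The Naip genes, whose proteins hand bacterial flagellin and secretion-system components to Nlrc4, went both ways. Naip2 fell by 0.52 on the log2 scale and Naip5 by 0.21, whereas Naip6 rose by 0.70. The family has near-identical copies, so the array may not tell them apart. These 3 and the mitochondrial family member Nlrx1 (-0.51) were named after their values were seen.

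Genes of NOD and NF-kappaB signaling were more often lower, with 9 of 19 lower, 4 higher and a median of -0.078. Slc15a1, a transporter of peptides that also carries muramyl dipeptide, had log2 values of 8.47, 8.14 and 8.59 in deficient colon, against 11.00, 11.04 and 10.85 in control colon (a log2 fold change of -2.56, SE 0.11, limma adjusted p = 2.75e-06). Slc15a3, a related transporter of endosomes and lysosomes, changed in the opposite direction (log2 fold change 1.22, limma adjusted p = 1.50e-04). The ubiquitin ligase gene Birc3 (-0.48) and Card6 (-0.50), which encodes a CARD protein, fell, but the other probe set of Birc3 (-0.049) did not pass.

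Among inflammasome regulators and gasdermins, 9 of 19 genes were higher, 5 lower and the median was 0.089. Guanylate-binding proteins, which are induced by interferon and expose bacterial lipopolysaccharide to caspase 4, made up the 3 genes of this list that rose more than 2-fold. Gbp2 had log2 values of 12.67, 12.63 and 12.72 in deficient colon, against 10.50, 10.57 and 10.56 in control colon (a log2 fold change of 2.13, SE 0.044, limma adjusted p = 7.72e-08). Gbp3 rose by 1.57 and Gbp7 by 1.08 on the log2 scale. Of 3 gasdermin genes that passed, 2 were lower. Gsdmc2, a gasdermin of the colon epithelium with close paralogs, fell by 1.41 on the log2 scale (limma adjusted p = 4.85e-07). Gsdmd, the substrate of caspases 1 and 4, had log2 values of 9.89, 9.97 and 9.89 in deficient colon, against 10.65, 10.57 and 10.67 in control colon (a log2 fold change of -0.71, SE 0.048, limma adjusted p = 1.93e-05). Gsdme was higher by 0.41 on the log2 scale in its brightest probe set, but its other probe set was lower (log2 fold change -0.71). Txnip (-0.87), a partner of Nlrp3, and P2rx7 (-0.90), the ATP receptor upstream of it, were lower as well. For P2rx7, 2 of its 3 probe sets passed, and the smallest of the 3 changes was -0.24. Gsdmd, Gsdme, Txnip and P2rx7 were named after their values were seen.

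**Figure D3:**
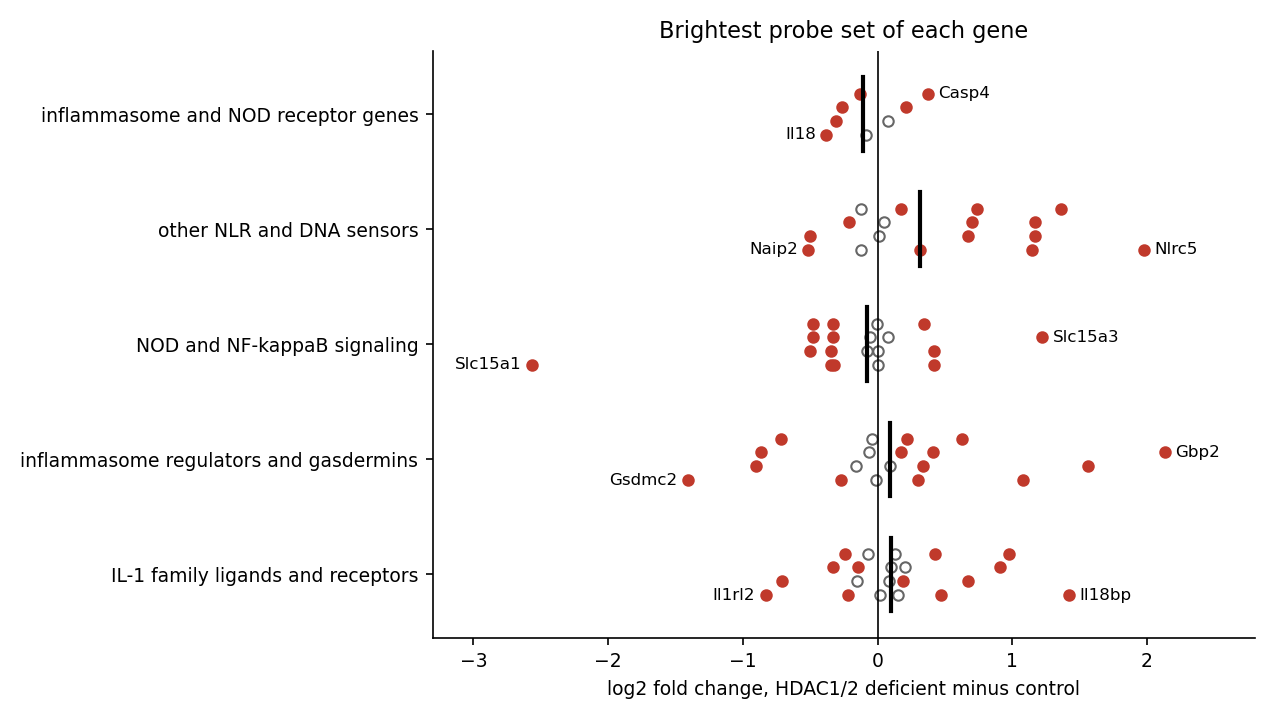
Log2 fold change (HDAC1/2 deficient minus control, horizontal axis) of the brightest probe set of each gene in the inflammasome and NOD receptor genes and 4 related lists. Filled red circles mark genes called by limma (adjusted p under 0.05), open circles the rest, and black bars the list medians. The 8 genes at the top lie between -0.38 and 0.37, while related genes reach from -2.56 (Slc15a1) to 2.13 (Gbp2).

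In the interleukin 1 family, 7 of 21 genes were higher, 6 lower and the median was 0.098. The interleukin 18 system moved in several places. Il18bp, which encodes the secreted inhibitor of interleukin 18, had log2 values of 8.94, 8.78 and 8.87 in deficient colon, against 7.42, 7.50 and 7.42 in control colon. Every deficient array was above every control array, with a 2.67-fold rise (log2 fold change 1.42, SE 0.056, limma adjusted p = 1.59e-06). The change of Il18bp exceeded that of Il18 by 1.80 on the log2 scale, again a pair chosen after its values were seen and not tested. The receptor chains Il18r1 and Il18rap were higher by 0.47 and 0.19 on the log2 scale (limma adjusted p = 6.14e-04 and 0.0101), but the other probe set of Il18rap (0.25) did not pass. Il1b, the other cytokine matured by caspase 1, had log2 values of 7.66, 7.65 and 7.72 in deficient colon, against 6.68, 6.90 and 6.52 in control colon (a log2 fold change of 0.98, SE 0.091, limma adjusted p = 9.59e-05). The decoy receptor gene Il1r2 (0.91) rose and the interleukin 36 receptor gene Il1rl2 (-0.83) fell, but the other probe set of Il1rl2 (-0.0018) did not pass. Il18r1 and Il18rap were named after their values were seen.

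**Figure D4:**
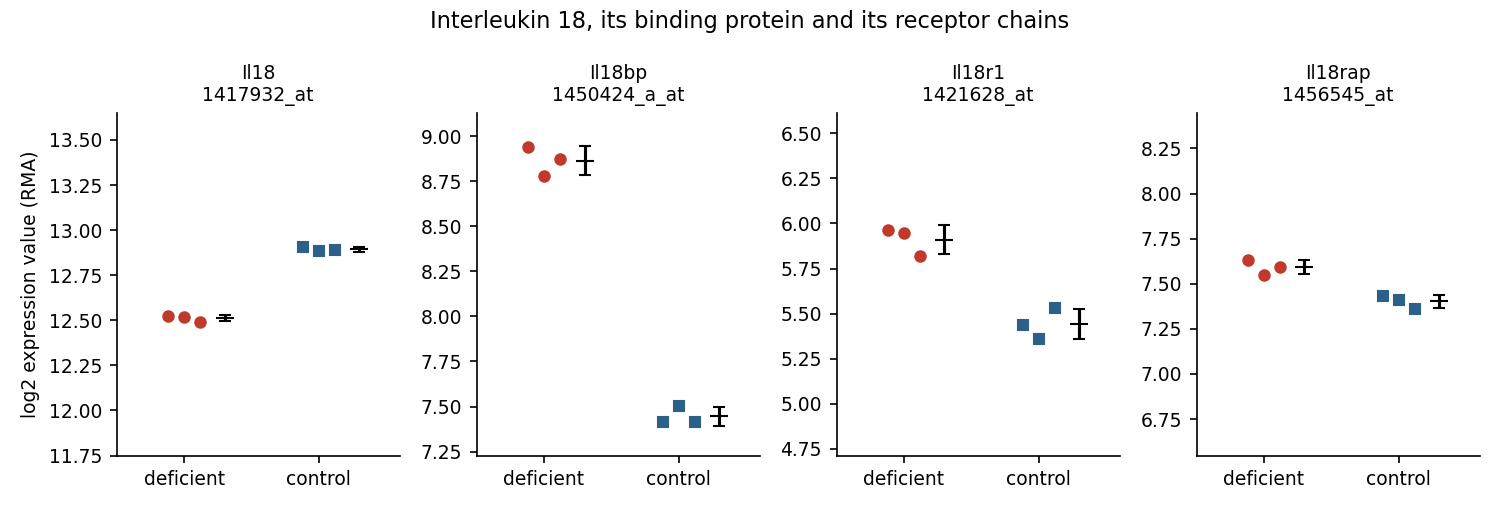
Log2 expression values (RMA, vertical axis, all panels spanning an equal range) of Il18, its inhibitor Il18bp and the receptor chains Il18r1 and Il18rap on 3 HDAC1/2 deficient arrays (red circles) and 3 control arrays (blue squares), with the mean and SD in black. Il18 is lower on every deficient array, and the other 3 genes are higher on each of them.

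The genes whose values lay closest to those of Casp4 and Il18 were sought among 18185 other genes, by the root mean square difference over the 6 arrays after centring on the control mean. Since arrays of a group lay close together, this mostly picks genes with a group difference of similar size. Shared regulation or a shared cell source was not tested. For Casp4 they were Zpr1 (0.014), Ezh2 (0.018), which encodes a histone methyltransferase, and Cptp (0.018 on the log2 scale). For Il18 they were Ambra1 (0.0075), the goblet cell gene Tff3 (0.0080) and Slmap (0.0097). Tff3 had log2 values of 14.15, 14.13 and 14.13 in deficient colon, against 14.53, 14.50 and 14.52 in control colon.

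Cell type markers moved with the same groups. Of 10 epithelial markers, 5 were higher and 1 lower (Epcam, at 14.15 in deficient and 14.31 in control colon), and their mean log2 level ran from 13.73 to 13.75 in deficient and from 13.57 to 13.59 in control colon. The other probe set of Epcam (log2 fold change -0.17) did not pass. Of 9 goblet cell markers, 1 was higher and 5 lower, with mean levels of 13.61 to 13.64 in deficient and 13.89 to 13.90 in control colon. Over 5 lists of macrophage, neutrophil, dendritic, T and B cell markers, 24 of 37 genes were higher and 1 lower. Beside each of these marker counts, 21.9% of all genes were higher and 28.4% lower. The lists differed, with 8 of 11 macrophage, 5 of 7 T cell and 5 of 5 B cell markers higher. Of neutrophil markers 3 of 8 were higher and 1 lower, and of dendritic cell markers 3 of 6 were higher. Macrophage markers averaged 8.84 to 8.85 in deficient and 8.10 to 8.19 in control colon. Although the labels give the source as epithelium, the paper describes RNA of the total colon. Smooth muscle genes were bright in both groups and all 7 were lower in the deficient one (mean levels of 12.39 to 12.46 in deficient and 12.88 to 12.89 in control colon). The part of these shifts in the values of the inflammasome and NOD receptor genes was not tested. Genes of the pancreas (all 5 measured higher) and squamous epithelium (6 of 7 lower) also separated the groups, as did the X- and Y-linked genes above, so the sex of the mice behind each array and the piece of tissue taken cannot be told apart from the genotype.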

How the data were processed

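The authors background-corrected, normalized and summarized the arrays by RMA in Flexarray and deposited 1 log2 value per probe set and array. RMA compresses the changes of dim probe sets, and no detection calls, scan dates or batches were used here. Of 45101 probe sets, 64 control probe sets were left out. The rest entered 1 linear model without covariates (limma 3.58.1, lmFit and eBayes, R 4.3.3), with Benjamini-Hochberg adjustment over 45037 probe sets and calls at an adjusted p under 0.05. Gene symbols came from the annotation of the array (34945 with 1 symbol, 932 with several, 9160 with none). SDs and tests are over 3 arrays per group, whose number limits the precision. Arrays of one group correlated at 0.998 to 0.999 over probe sets, those of different groups at 0.982 to 0.983.

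The members and lists were chosen with earlier results of these data known. Named genes are all members, the 4 called genes of largest change per related list, some of the first 3 markers of a cell type list, and the 3 genes most like the members of largest rise and fall. Cel, the deleted genes, and the genes said above to be named after their values were seen lie outside this rule. Of 92 related genes 76 had a probe set. The scripts were tested on simulated data. The promoter motifs and gene pairs were chosen after values were seen, and promoter windows from RefSeq were cut to the 250 bases before the start. Figures were drawn with matplotlib 3.10.9. The methods' t-test, other normalizations, filters and left-out arrays were tried as alternatives.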

Additional observations from a re-analysis of the deposited data

How the results depend on the processing

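Casp4, Nod1, Il18 and Nlrp6 kept their direction and their call under the methods' t-test, raw or adjusted, a further quantile normalization, median centring, the filter at the 40th percentile, trend and robust settings, array weights, the replicate block and each left-out array. Aim2 missed the threshold only under that t-test once adjusted (adjusted p = 0.0757). Casp1 missed it under the replicate block (limma adjusted p = 0.0663) and without any 1 array. Pycard probe set 1417347_at passed with the filter (limma adjusted p = 0.0291), with trend and robust settings (0.0273), with the replicate block (0.0497) and without the third deficient array, and 1417346_at passed with trend and robust settings (0.0152). Pycard probe set 1446926_at ranged from -0.12 to 0.013 over left-out arrays. Of 10 probe sets, 2 were higher under every setting, and 3 to 6 were lower. As the mean of its probe sets Pycard changed by -0.12 (limma adjusted p = 0.0727). The count over all probe sets ran from 12422 (the methods' t-test with adjustment) to 18939 (trend and robust). Deviations of same-numbered arrays correlated at 0.096, 0.064 and -0.026. With 3 arrays per group, these values cannot show whether the numbers pair the arrays. The replicate block gave 17283 probe sets. The cause of these shifts was not tested. Without detection calls, how far the dimmer probe sets of Nlrp3, Aim2 and Pycard stood above background is unknown.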
